A study of Mus musculus with 9 samples.

Results

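The genes examined here encode 23 nuclear receptors and 13 of their coregulators, 36 genes in all. They form a list of names with no cutoff on a measured value, but the list was chosen with earlier results of these data known. Their chromatin was read by ChIP-seq (chromatin immunoprecipitation with sequencing) with an antibody against NR4A2, itself a nuclear receptor. A region of the deposited table was counted as a member when it touched the RefSeq span of a listed gene extended by 10 kb on each side (build GRCm38). This gave 80 of the 16884 regions, at 32 of the 36 genes. Nr2f1, Nr6a1, Vdr and Ncoa7 had no region in the table. Of the 80 regions, 56 overlapped the gene span and 24 lay in its flanks, and 27 also overlapped another protein-coding gene.

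The tissue was heart ventricle of 8- to 9-week-old mice, collected 3 days after 1 intraperitoneal injection of 40 mg/kg tamoxifen. The Nr4a2-icTg mice (n = 3) carry a conditional Nr4a2 knock-in at ROSA26 together with Myh6-cre/Esr1*, a transgene in which the cardiomyocyte promoter of Myh6 drives αMHC-MerCreMer, a tamoxifen-inducible Cre. The Cre control littermates (n = 3) carry αMHC-MerCreMer and got the same tamoxifen, so that both groups share the transgene and the drug. MerCreMer is a Cre recombinase fused to mutated ligand-binding domains of the mouse estrogen receptor, which is encoded by one of the genes examined, Esr1. Induction is restricted to cardiomyocytes, whereas the chromatin came from whole ventricle.

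Nuclear receptors are transcription factors with a zinc-finger DNA-binding domain and a ligand-binding domain. Steroid receptors act as homodimers. The receptors for thyroid hormone, retinoic acid, vitamin D, fatty acids and oxysterols pair with a retinoid X receptor (RXR) on repeats of the half-site AGGTCA. NR4A receptors can bind as monomers to a half-site preceded by AA, the NBRE, and NR4A2 can also pair with RXR. Coactivators such as the NCOA family, EP300 and CREBBP are recruited by ligand-bound receptors, and NCOR1 recruits HDAC3 and TBL1XR1 to receptors without ligand. In heart muscle, members of the family govern fuel use, ion handling and the response to stress hormones.

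RefSeq promoter windows (GRCm38.p6, 300 bases that end shortly after a listed start) were found for 31 of the 36 genes, with 50 listed starts. Some of the 50 windows overlap each other. Their median GC content was 62.8%, against 52.7% in all windows, and the shares below are not matched for it. AAAGGTCA occurred on either strand in 2 of these 50 windows and in 1.51% of all 32851 windows of that length. AGGTCA, which every AAAGGTCA contains, occurred in 10 of the 50 windows (20%) and in 16.3% of all windows. AGGTCA repeated with 1, 4 or 5 bases between occurred in 0 of the 50 windows and in 0.0396%, 0.0152% and 0.00913% of all windows. AGAACA followed after 3 bases by TGTTCT, the glucocorticoid response element, occurred in 0 of the 50 and in 0.00913% of all. A match describes the letters only. Of these windows 4 are printed in gene orientation, all on the plus strand, 3 because a called region covered all or most of them and the last as the other window with AAAGGTCA. Capitals mark AGGTCA on either strand (TGACCT on the opposite one), with the preceding AA where it completes AAAGGTCA.

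Rxrg, internal start, chr1:167618015-167618314: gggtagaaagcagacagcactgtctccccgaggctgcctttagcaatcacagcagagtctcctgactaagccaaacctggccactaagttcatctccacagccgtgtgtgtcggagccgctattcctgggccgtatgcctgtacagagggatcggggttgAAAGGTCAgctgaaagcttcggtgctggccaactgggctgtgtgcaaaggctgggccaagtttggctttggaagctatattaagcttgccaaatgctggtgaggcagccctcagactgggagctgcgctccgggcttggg

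Rxra, first start, chr2:27676951-27677250: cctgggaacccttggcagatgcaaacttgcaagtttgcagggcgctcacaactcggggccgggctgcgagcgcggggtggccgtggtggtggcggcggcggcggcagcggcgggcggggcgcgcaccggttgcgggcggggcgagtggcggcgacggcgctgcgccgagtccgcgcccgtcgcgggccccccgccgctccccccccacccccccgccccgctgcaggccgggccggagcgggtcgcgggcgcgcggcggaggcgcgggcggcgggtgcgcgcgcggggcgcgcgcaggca

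Pparg, second start, chr6:115362099-115362398: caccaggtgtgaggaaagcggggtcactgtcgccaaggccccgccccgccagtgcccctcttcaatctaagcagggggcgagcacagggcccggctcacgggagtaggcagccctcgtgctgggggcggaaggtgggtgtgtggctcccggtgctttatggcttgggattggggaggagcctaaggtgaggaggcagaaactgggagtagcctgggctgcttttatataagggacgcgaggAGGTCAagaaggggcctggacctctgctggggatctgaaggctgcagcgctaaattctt

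Rxra, second start, chr2:27709042-27709341: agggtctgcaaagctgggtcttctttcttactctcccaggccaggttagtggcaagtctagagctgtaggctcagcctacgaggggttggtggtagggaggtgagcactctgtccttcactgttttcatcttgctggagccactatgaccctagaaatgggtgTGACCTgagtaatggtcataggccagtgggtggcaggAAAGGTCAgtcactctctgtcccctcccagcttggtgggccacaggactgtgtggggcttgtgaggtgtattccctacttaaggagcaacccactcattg

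The Rxrg window holds AAAGGTCA, whose AGGTCA begins 88 bases before the listed start and inside the region with higher signal described below. The first Rxra window holds no match, and the Pparg window holds AGGTCA without the AA, 9 bases before the start. At the second Rxra window, where AAAGGTCA and TGACCT both occur, the table has no region.

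Values are the CPM deposited by the authors, that is, reads scaled to nearly each library's reads in regions (the columns sum to 989059 to 1009112 and not to 1 shared total, by a factor that is not stated). These reads numbered 637635 to 1035856 in the Nr4a2-icTg libraries and 549700 to 1027394 in the Cre control libraries. Control mouse 3 was the shallowest, with 1 read worth 1.81 CPM against 0.955 to 1.58 CPM elsewhere. Since ChIP was done on bulk tissue, fewer cells carrying a signal and less signal per cell cannot be told apart. At Nr4a2 itself, 2 of 4 regions were higher, the one with the larger change (chr2:57111638-57112257) at 90.3 ± 21.3 CPM in Nr4a2-icTg hearts and 13.1 ± 10.6 CPM in Cre control hearts (SD, n = 3 each). Reads from the knock-in and from the native gene cannot be told apart there. All 8 cardiomyocyte marker genes had a region, against 3 of 5 fibroblast, 3 of 4 endothelial, 1 of 4 immune and 2 of 4 smooth muscle and pericyte markers (no region at Dcn, Pdgfra, Tek, Ptprc, Adgre1, Csf1r, Myh11 and Rgs5). Summed signal was 39962 to 50631 CPM in Nr4a2-icTg hearts and 33446 to 50501 CPM in Cre control hearts at the cardiomyocyte markers, of whose 40 regions 9 were higher and 8 lower. They went both ways by gene, with 3 of 3 regions higher at Actc1 and 6 of 9 lower at Atp2a2. Myh6 is among these markers, and both groups carry its promoter in the transgene. Reads from the transgene and from native Myh6 cannot be told apart in this sum. At the 12 endothelial marker regions the summed signal was 369.5 to 504 CPM in Nr4a2-icTg hearts and 494 to 619.98 CPM in Cre control hearts, with 1 region lower. At the 2 immune marker regions it was 340.5 to 375 CPM in Nr4a2-icTg hearts and 418 to 460.4 CPM in Cre control hearts. At the fibroblast markers it was 88.3 to 146 CPM in Nr4a2-icTg hearts and 99.6 to 163 CPM in Cre control hearts, and at those of smooth muscle and pericytes 37.8 to 61.5 CPM in Nr4a2-icTg hearts and 21.7 to 38.0 CPM in Cre control hearts. ChIP signal is not expression, and the part of these cell types in the results was not tested.

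Signal was higher in Nr4a2-icTg hearts at 7 of the 80 regions and lower at 3, each at a different gene (limma, adjusted p under 0.05 over all 16884 regions). The 7 higher regions lay at Nr3c2, Rxrg, Ppard, Nr2c2, Ncoa1, Ncoa6 and Ncor1, and the 3 lower ones at Rxra, Pparg and Ncoa2. That is 8.75% and 3.75% of the member regions, against 14.7% and 3.17% of all regions in the table. By gene, 7 of the 32 with a region (21.9%) had a higher one and 3 (9.38%) a lower one, against 14.2% and 6.25% of all 11154 protein-coding genes with a region. A gene with more regions has more chances of a call. The 32 genes had a mean of 2.5 regions each, and the mean over all genes was not computed, so the gene shares are not matched for this. With no scaling for depth, 4 member regions were higher (at Nr3c2, Nr2c2, Ncoa6 and Ncor1) and 0 lower (limma, with 7 and 1 at an unadjusted p under 0.05). With edgeR, which scales for depth, 7 were higher and 3 lower. CPM are given with the SD of 3 mice, and log2 fold changes, of CPM + 1, with the SE of the limma fit, also where the value stands alone. Members showed a median log2 fold change of -0.15 and all regions one of -0.06. All 3 Nr4a2-icTg mice exceeded all 3 control mice at 8 member regions and lay below them at 14, where the share over all regions was 19.9% and 11.7%. Most of these 14 did not pass the test: 11 were uncalled.

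**Figure D1:**
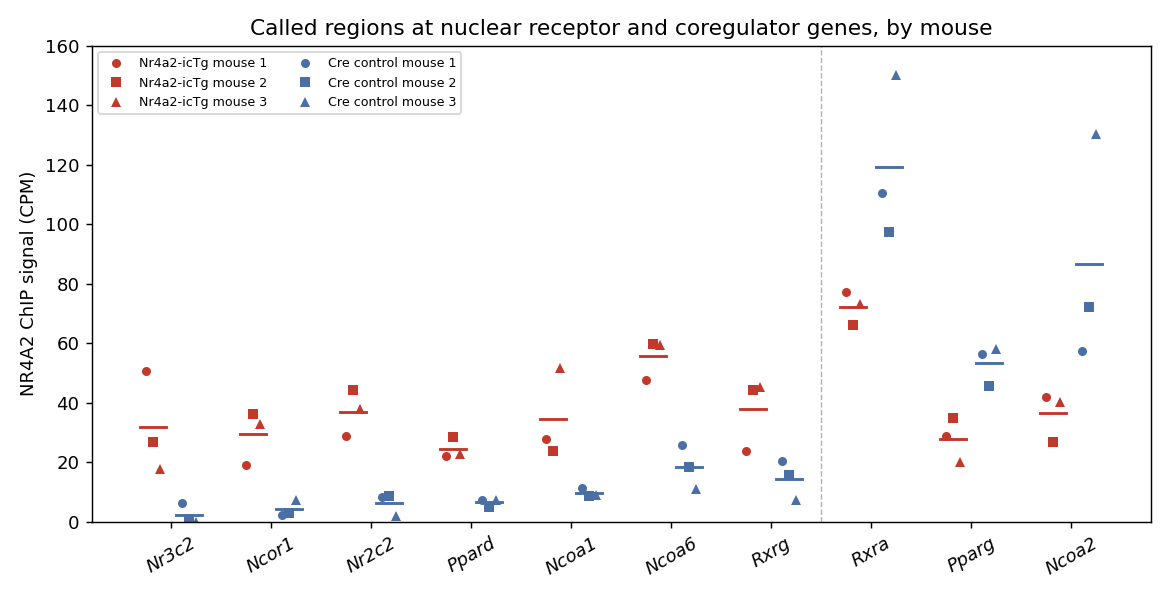
NR4A2 ChIP signal (CPM) of each mouse at the 10 called regions, Nr4a2-icTg (red) left of Cre control (blue) at each gene, with bars at the mean of 3 mice. In the 7 regions left of the dashed line every Nr4a2-icTg mouse lies above every control mouse, and in the 3 on the right every one lies below.

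Where a region lay went with whether its signal was higher. Over 1 kb from the nearest end of a protein-coding gene, 6 of 27 member regions (22.2%) were higher and 1 (3.70%) lower, against 26.1% and 2.39% of all 8753 such regions. Within 1 kb of a gene end, 1 of 53 (1.89%) was higher and 2 (3.77%) lower, against 2.31% and 4.02% of all 8131 such regions. Members were close to a gene end more often than regions at large, 66.3% against 48.2%. The shares of called regions at receptor and coregulator genes were thus near those of all regions at like distance. Median log2 fold changes were less alike over 1 kb, -0.10 for members and 0.26 for all regions. Within 1 kb they were -0.16 and -0.18. The far class also holds regions at internal starts: the higher Rxrg region and the lower Pparg region each cover a listed start. Exons and introns are not told apart, because the annotation used gives gene spans and listed starts only.

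**Figure D2:**
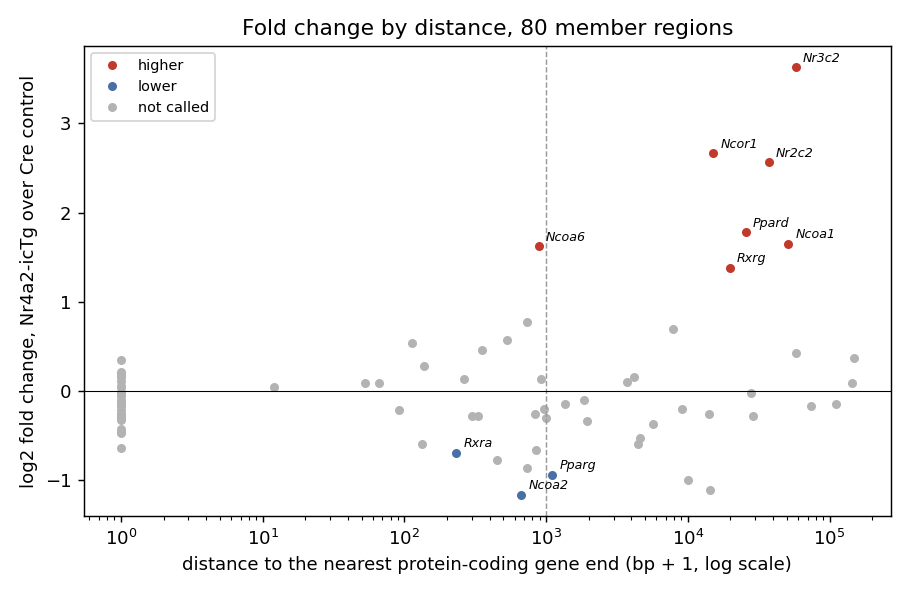
Log2 fold change (Nr4a2-icTg over Cre control, CPM + 1) of the 80 member regions against their distance to the nearest protein-coding gene end (bp + 1, log axis), with the dashed line at 1 kb. Of the 7 higher regions (red), 6 lie to the right of the line and Ncoa6 just left of it. The lower regions (blue) lie at 231 bp (Rxra), 668 bp (Ncoa2) and 1102 bp (Pparg).

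Among steroid hormone receptor genes, 1 of 9 regions was called, as higher. It lay inside Nr3c2, which encodes the mineralocorticoid receptor for aldosterone and, in heart muscle, largely cortisol or corticosterone (chr8:76955928-76956193, 266 bp long, 53.6 kb from the listed start). The signal was 50.6, 26.8 and 17.7 CPM in Nr4a2-icTg mice 1, 2 and 3, against 6.15, 0.973 and 0 CPM in the control mice. These rest on 53, 17 and 14 reads in Nr4a2-icTg mice and on 6, 1 and 0 reads in controls, so that the region is near empty in 2 of the 3 controls, and Nr4a2-icTg mouse 1 stands above its group. The fitted log2 fold change was 3.63 ± 0.76 (SE, limma adjusted p = 0.000161), with 2.99 to 4.41 when 1 mouse was left out. Its size depends on the constant added to the CPM, with 4.11 for 0.5 and 2.30 for 5. At the region over the listed start of the same gene (chr8:76901803-76902351) the groups overlapped, with 112, 94.6 and 107 CPM in Nr4a2-icTg mice and 105, 96.4 and 90.5 CPM in controls (log2 fold change 0.10 ± 0.20, adjusted p = 0.788). Whether these 2 regions of Nr3c2 differ in their change was not tested.

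Nr3c1, which encodes the glucocorticoid receptor, had 2 regions inside the gene, neither called. The stronger had 106, 112 and 144 CPM in Nr4a2-icTg mice and 105, 135 and 217 CPM in controls (log2 fold change -0.28 ± 0.20, adjusted p = 0.382), with control mouse 3 the highest of the 6. Without that mouse the difference was 0.01.

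Esr1, the gene of estrogen receptor alpha, stood apart in level rather than in change. Its 2 regions, chr10:4856925-4857194 (270 bp) and chr10:5001186-5001430 (245 bp), ranked 1 and 2 of all regions in mean CPM per kb of region, at 2229 and 2149.6 CPM per kb. The next region in the table had 638 CPM per kb, and the other 78 member regions ranged from 53.3 to 184. In the first, the signal was 665, 823 and 515 CPM in Nr4a2-icTg mice and 710.0, 576 and 322 CPM in control mice. In the second it was 558, 621 and 482 CPM in Nr4a2-icTg mice and 569.7, 508 and 422 CPM in control mice. Both groups overlapped in both regions, and the differences did not pass (log2 fold changes 0.36 ± 0.30 and 0.15 ± 0.15, limma adjusted p = 0.494 and 0.556). The first reached 0.60 without control mouse 1 (adjusted p = 0.0219) and 0.03 without control mouse 3. Neither region is near a listed Esr1 start, at 147 and 291 kb. All 6 mice carry Esr1 sequence in the MerCreMer transgene, and reads from it and from the native gene cannot be told apart in these values. The input libraries, which bear on this, were not analysed here.

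**Figure D3:**
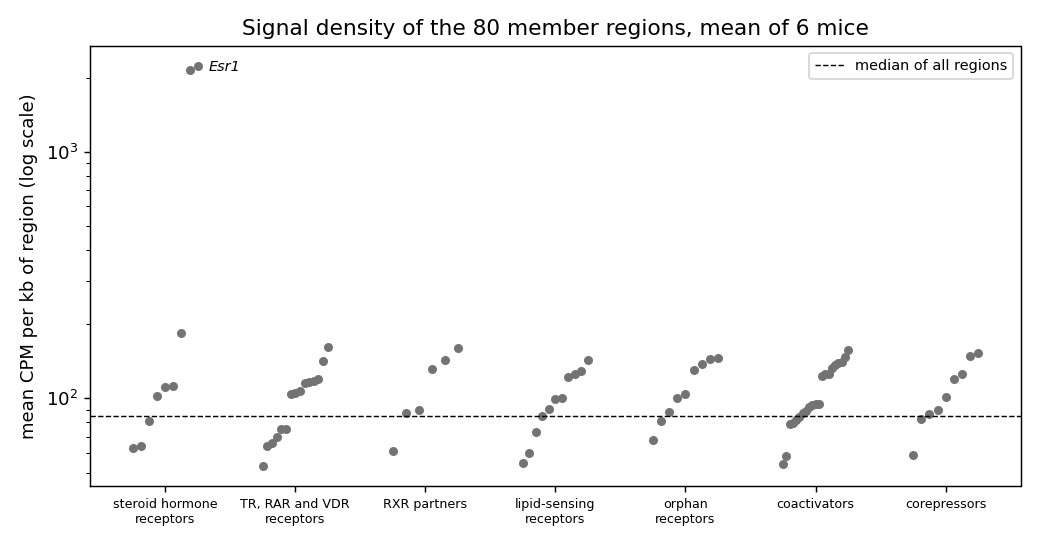
Mean CPM per kb of region over the 6 mice (log axis) for the 80 member regions by role, where TR, RAR and VDR are the thyroid hormone, retinoic acid and vitamin D receptors. The dashed line is the median of all regions, 84.7 CPM per kb. The 2 Esr1 regions lie at 2229 and 2149.6 CPM per kb and all others at or below 184.

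None of the 15 regions at the thyroid hormone and retinoic acid receptor genes was called by limma, and 0 had an unadjusted p under 0.05. Thra, the main cardiac thyroid hormone receptor gene, had 7 regions, and its span overlaps that of the clock receptor gene Nr1d1. Its strongest region (chr11:98771969-98776131) overlapped Nr1d1 and not Thra itself, with 626, 687 and 742 CPM in Nr4a2-icTg mice and 667, 647 and 662 CPM in controls (log2 fold change 0.05 ± 0.14, adjusted p = 0.85). All 6 mice were close together there. The lowest log2 fold change of the group belonged to a weak region inside Thra with 3.82, 20.5 and 6.31 CPM in Nr4a2-icTg mice and 27.7, 12.7 and 14.5 CPM in controls (adjusted p = 0.255), where the groups overlapped. Thrb, the other thyroid hormone receptor gene, had 1 region, over its first listed start, at 54.4, 58.3 and 80.7 CPM in Nr4a2-icTg mice and 59.4, 27.3 and 50.7 CPM in controls (log2 fold change 0.54 ± 0.28, adjusted p = 0.195). The groups overlapped, and control mouse 2 was the lowest of the 6.

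The retinoic acid receptor genes were represented by Rara with 4 regions, Rarb with 1 and Rarg with 2. The strongest region of Rara averaged 72.9 ± 22.9 CPM in Nr4a2-icTg hearts and 83.4 ± 18.5 CPM in Cre control hearts (SD, n = 3 each). The Rarb region, 21 bases from an internal start, averaged 52.3 ± 12.7 CPM in Nr4a2-icTg hearts and 48.4 ± 5.37 CPM in controls. The stronger Rarg region averaged 198 ± 20.4 CPM in Nr4a2-icTg hearts and 233 ± 60.6 CPM in controls. Groups overlapped in all 3, with log2 fold changes of -0.22, 0.09 and -0.21 (limma adjusted p = 0.599, 0.871 and 0.473).

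The 3 RXR genes, whose products are the shared partners of many receptors, held 1 higher region at Rxrg, 1 lower at Rxra and none called at Rxrb. At Rxrg, the RXR gamma gene, the single region (chr1:167618120-167618418) covers the internal start whose window is printed above. It had 23.9, 44.1 and 45.4 CPM in Nr4a2-icTg mice, against 20.5, 15.6 and 7.24 CPM in control mice. The groups did not overlap, but Nr4a2-icTg mouse 1 and control mouse 1 were close, at 25 and 20 reads. Its log2 fold change of 1.38 ± 0.42 (SE, limma adjusted p = 0.0122) lost its call without Nr4a2-icTg mouse 2, without Nr4a2-icTg mouse 3 and without control mouse 3 (0.98 to 1.25, adjusted p = 0.0737 to 0.107).

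Rxra, the gene of RXR alpha, the form required for heart development, changed the other way. Its region over the first start (chr2:27676676-27677747) had 77.3, 66.2 and 73.2 CPM in Nr4a2-icTg mice, against 111, 97.3 and 150.2 CPM in control mice (log2 fold change -0.70 ± 0.21, limma adjusted p = 0.0132). All 3 Nr4a2-icTg mice were close together and below the controls, of which mouse 3 was the highest. Without control mouse 3 the value was -0.52 and the adjusted p 0.125. A second, weak region inside Rxra had 7.64, 7.88 and 12.6 CPM in Nr4a2-icTg mice and 33.8, 18.5 and 14.5 CPM in controls, also without overlap, and did not pass (-1.11 ± 0.52, adjusted p = 0.137). At Rxrb the strongest of 3 regions, shared with the zinc transporter gene Slc39a7, averaged 136 ± 19.1 CPM in Nr4a2-icTg hearts and 154 ± 38.5 CPM in controls (adjusted p = 0.646).

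Among the lipid-sensing receptor genes, 1 of 11 regions was higher and 1 lower, at 2 PPAR genes. Ppard encodes PPAR delta, which drives fatty acid oxidation genes in muscle. A 211 bp region inside it, 25.6 kb from the start (chr17:28258344-28258554), had 22.0, 28.4 and 22.7 CPM in Nr4a2-icTg mice, against 7.17, 4.87 and 7.24 CPM in control mice. The mice of each group lay close together, with 23, 18 and 18 reads in Nr4a2-icTg mice and 7, 5 and 4 reads in controls. This gave a log2 fold change of 1.78 ± 0.54 (limma adjusted p = 0.0127), and the call ended without Nr4a2-icTg mouse 2 (1.67, adjusted p = 0.0844). Over the Ppard start the signal was 46.8, 34.7 and 31.5 CPM in Nr4a2-icTg mice and 28.7, 38.9 and 21.7 CPM in controls, with overlap (adjusted p = 0.552).

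Pparg, the gene of PPAR gamma, the fat cell regulator, had 1 region, over its second listed start (chr6:115361981-115362383). It had 28.6, 34.7 and 20.2 CPM in Nr4a2-icTg mice, against 56.4, 45.7 and 57.9 CPM in control mice, without overlap (log2 fold change -0.94 ± 0.32, limma adjusted p = 0.0271). Of the 10 calls this one ended under the most settings, among them without any 1 of 4 mice (Nr4a2-icTg 1 and 3, control 1 and 3, adjusted p = 0.0514 to 0.146) and with DESeq2 (adjusted p = 0.0563). Ppara, whose product controls fatty acid oxidation in the heart, had 3 regions, none called by limma (1 with an unadjusted p under 0.05, and 0 called by edgeR or DESeq2). Over its start the values were 84.0, 89.8 and 84.5 CPM in Nr4a2-icTg mice and 90.2, 125 and 114 CPM in controls (log2 fold change -0.33 ± 0.21, adjusted p = 0.301). All 3 Nr4a2-icTg mice were below all controls, and the difference did not pass. The strongest region near Ppara (chr15:85811041-85812033) lies in its flank and overlaps Cdpf1, with 137 ± 15.3 CPM in Nr4a2-icTg hearts and 148 ± 8.24 CPM in controls. The liver X receptor genes Nr1h2 and Nr1h3, whose products sense oxysterols, showed -0.64 ± 0.29 and 0.16 ± 0.25 at their strongest regions (adjusted p = 0.131 and 0.725). Without Nr4a2-icTg mouse 3 the Nr1h2 region had -1.05 with an adjusted p of 0.0288. The Nr1h3 region overlaps Acp2.

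**Figure D4:**
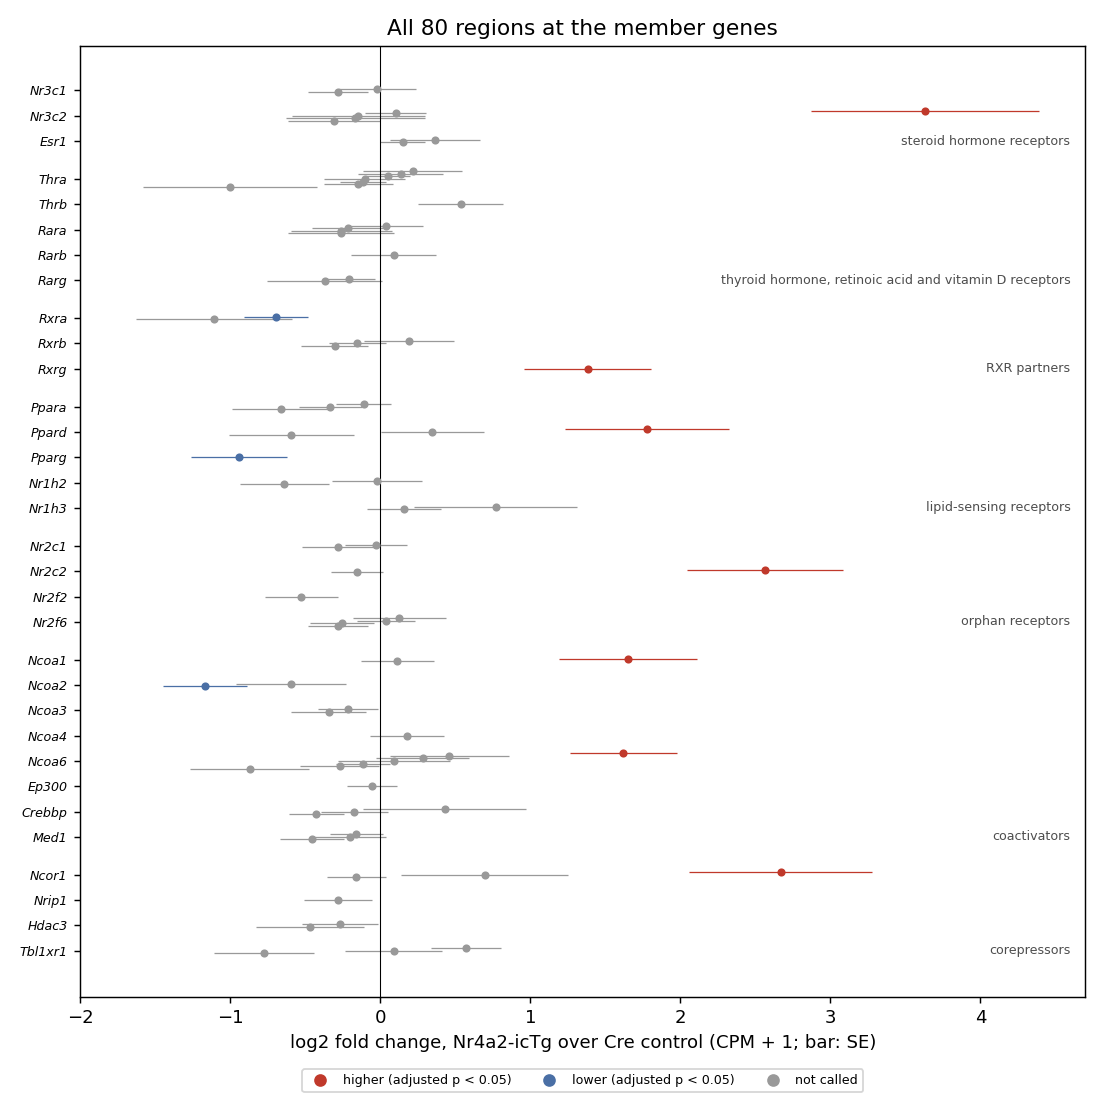
Log2 fold change (Nr4a2-icTg over Cre control, CPM + 1) with its SE for each of the 80 regions, 1 line per gene, genes grouped by role. Called regions are red (7 higher) or blue (3 lower), and uncalled regions (70, grey) range from -1.11 to 0.77.

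Of the orphan receptor genes, 4 of 6 had regions, and 1 of their 9 regions was higher. It lay inside Nr2c2, the gene of the testicular receptor TR4, which binds AGGTCA repeats (chr6:92132059-92132325, 39.6 kb from the start). The signal was 28.6, 44.1 and 37.8 CPM in Nr4a2-icTg mice, against 8.20, 8.76 and 1.81 CPM in control mice, on 30, 28 and 30 reads in Nr4a2-icTg mice and 8, 9 and 1 reads in controls. The read numbers were alike in the 3 Nr4a2-icTg mice and the groups were well apart. A log2 fold change of 2.56 ± 0.52 (limma adjusted p = 9.52e-05) had the smallest adjusted p among member regions, and was 1.98 without control mouse 3. The region over the Nr2c2 start (chr6:92091157-92092447) was far stronger, with 198, 162 and 168 CPM in Nr4a2-icTg mice and 191, 177 and 221 CPM in controls, and the groups overlapped (-0.16 ± 0.17, adjusted p = 0.604).

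The remaining orphan receptor regions were uncalled. The region within Nr2f2, which encodes COUP-TFII, a regulator of atrial and venous identity, had 59.2, 45.7 and 69.4 CPM in Nr4a2-icTg mice and 82.0, 65.2 and 107 CPM in controls (log2 fold change -0.53 ± 0.24, adjusted p = 0.131). Nr2f6, the gene of the related EAR2, had 129 ± 18.7 CPM in Nr4a2-icTg hearts and 126 ± 21.0 CPM in controls over its start (0.04 ± 0.19, adjusted p = 0.921). Nr2c1, the gene of TR2, the usual partner of TR4, had 64.7 ± 17.0 CPM in Nr4a2-icTg hearts and 77.5 ± 10.1 CPM in controls over its start (-0.28 ± 0.24, adjusted p = 0.482). Its strongest region, -0.03 ± 0.21, overlaps the respiratory chain gene Ndufa12 in the flank.

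Coactivator genes held 21 regions, of which 2 were higher and 1 lower, at 3 NCOA genes. Ncoa1 and Ncoa2 encode the steroid receptor coactivators SRC-1 and SRC-2. Inside Ncoa1, 68.9 kb from the start (chr12:4407947-4408323), the signal was 27.7, 23.6 and 51.7 CPM in Nr4a2-icTg mice, against 11.3, 8.76 and 9.05 CPM in control mice. Controls were tightly grouped, and Nr4a2-icTg mouse 3 stood above the rest of its group. The log2 fold change of 1.65 ± 0.46 (limma adjusted p = 0.0051) became 1.32 without Nr4a2-icTg mouse 3, with an adjusted p of 0.0971. Over the Ncoa1 start the groups overlapped, at 68.8 ± 9.31 CPM in Nr4a2-icTg hearts and 63.6 ± 10.8 CPM in controls.

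At Ncoa2 a region 668 bp inside the upper end of the gene (chr1:13372780-13373559) had 42.0, 26.8 and 40.4 CPM in Nr4a2-icTg mice, against 57.4, 72.0 and 130.3 CPM in control mice. The groups did not overlap, and control mouse 3 was far above the other controls in CPM. The reads numbered 44, 17 and 32 in Nr4a2-icTg mice and 56, 74 and 72 in controls. Its log2 fold change was -1.17 ± 0.28 (limma adjusted p = 0.00104), and -0.83 without control mouse 3 (adjusted p = 0.0539). The adjoining region (chr1:13373755-13374095) lay in the same direction without overlap, at 25.8, 23.6 and 18.9 CPM in Nr4a2-icTg mice and 36.9, 31.1 and 36.2 CPM in controls, and did not pass (-0.59 ± 0.37, adjusted p = 0.29).

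Ncoa6, the gene of a scaffold of a histone methyltransferase complex, had 7 regions. The higher one (chr2:155472609-155473023) lay inside the gene, 888 bp from its upper end, with 47.7, 59.9 and 59.3 CPM in Nr4a2-icTg mice, against 25.6, 18.5 and 10.9 CPM in control mice. The groups were apart by more than their spread (log2 fold change 1.62 ± 0.36, limma adjusted p = 0.000311), and the call held without any 1 mouse (1.31 to 1.89). The neighbouring region over that gene end (chr2:155473250-155474044) had 75.4, 47.3 and 70.6 CPM in Nr4a2-icTg mice and 48.2, 73.0 and 127 CPM in controls (-0.27 ± 0.26, adjusted p = 0.538). The 5 others, near the lower end and partly over Trp53inp2, ranged from -0.87 to 0.46.

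Among the other coactivator genes limma, edgeR and DESeq2 called 0 regions, and 2 had an unadjusted p under 0.05 (limma). Ep300 and Crebbp encode the histone acetyltransferases p300 and CBP. The Ep300 start region had 231, 243 and 202 CPM in Nr4a2-icTg mice and 238, 210.2 and 253 CPM in controls, closely overlapping (log2 fold change -0.05 ± 0.16, adjusted p = 0.867). The Crebbp start region had 126, 147 and 114 CPM in Nr4a2-icTg mice and 152, 161 and 210.0 CPM in controls, lower in all 3 but short of the threshold (-0.43 ± 0.18, adjusted p = 0.104). The same held 116 bases from the start of Med1, the gene of the Mediator subunit that contacts nuclear receptors, with 69.7, 72.5 and 87.0 CPM in Nr4a2-icTg mice and 106, 95.4 and 114 CPM in controls (-0.46 ± 0.21, adjusted p = 0.139). The strongest region assigned to Med1 overlaps Cdk12 and showed -0.16 ± 0.17. Ncoa3, the SRC-3 gene, and Ncoa4, a coactivator better known as the receptor for ferritin autophagy, had -0.21 ± 0.20 and 0.18 ± 0.25 at their strongest regions (adjusted p = 0.522 and 0.691).

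Corepressor genes held 9 regions, 1 of them higher. Ncor1 encodes the corepressor that keeps receptors without ligand silent. A 194 bp region inside it (chr11:62442169-62442362), 3.65 kb from an internal listed start, had 19.1, 36.3 and 32.8 CPM in Nr4a2-icTg mice, against 2.05, 2.92 and 7.24 CPM in control mice. Nr4a2-icTg mice held 20, 23 and 26 reads and controls held 2, 3 and 4, so the control level rests on few reads. The log2 fold change was 2.67 ± 0.61 (limma adjusted p = 0.000555), 2.37 to 3.09 with 1 mouse left out. Over the upstream start of Ncor1 the values were 149, 106 and 109.7 CPM in Nr4a2-icTg mice and 117, 119.7 and 172 CPM in controls, overlapping (-0.16 ± 0.20, adjusted p = 0.647).

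Tbl1xr1, whose product belongs to the NCOR1 complex, had 3 regions around its start, with values on both sides of 0. The one 529 bp outside the gene had 89.8, 82.0 and 98.4 CPM in Nr4a2-icTg mice and 74.8, 57.4 and 50.7 CPM in controls (0.57 ± 0.23, limma adjusted p = 0.0805). The one just inside had 22.9, 26.8 and 29.0 CPM in Nr4a2-icTg mice and 35.9, 44.8 and 57.9 CPM in controls (-0.77 ± 0.33, adjusted p = 0.101). Neither pair of groups overlapped and neither passed, although without control mouse 1 the first did (0.72, adjusted p = 0.0486). Hdac3, the histone deacetylase of the same complex, had 2 regions. The one in its flank overlaps Diaph1 and showed -0.27 ± 0.25. The other lies over an end of Hdac3 itself, also overlaps Rell2, and showed -0.47 ± 0.36. Nrip1, the gene of RIP140, a corepressor of metabolic genes, had 66.8, 91.4 and 93.3 CPM in Nr4a2-icTg mice and 70.7, 92.5 and 157 CPM in controls (-0.28 ± 0.23, adjusted p = 0.446), with control mouse 3 above the other 5 and a value of 0.04 without it.

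The 7 higher regions were short, 194 to 415 bp with a median of 267 bp, against 369 bp for all higher regions and 438 bp for all regions. Their mean control signal was between the 0.272 and 26.4 percentiles of all regions. Their median signal was 34.3 CPM in Nr4a2-icTg hearts and 6.43 CPM in control hearts. For all higher regions in the table the medians were 38.8 CPM in Nr4a2-icTg hearts and 9.70 CPM in control hearts. The 3 lower regions were longer, 403 to 1072 bp, and lay between the 64.0 and 90.3 percentiles of control signal. Since the control signal is part of the fold change, these are descriptions only.

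A listed start of their own gene was covered by 20 member regions, at 20 genes. Of these, 1 was higher (Rxrg), 2 were lower (Rxra and Pparg) and 17 were uncalled. The share over all 6026 regions that cover a listed start of any gene was 1.31% higher and 4.46% lower. The 2 sets are not counted alike, since member regions that cover only the start of another gene are not among the 20. Nr3c1, Thra, Ncoa2, Ncoa3 and Hdac3 have no listed start and could not enter that count. Control mouse 3, the shallowest library, was the highest of the 6 mice at 26.3% of the 80 member regions and at 20.9% of all regions in the table. At the 53 member regions within 1 kb of a gene end the share was 30.2%. The share over all regions at that distance was not computed. Without control mouse 3, 0 of the 80 regions were lower (limma, with 6 at an unadjusted p under 0.05) and 6 were higher. Of all regions in the same fit, 354 were lower (2.1%) and 2332 higher (13.8%), where 536 were lower with all mice. The 3 lower calls and that at Rxrg thus ended. Without Nr4a2-icTg mouse 3 still fewer regions were lower over the whole table, 270, but 3 member regions were lower, although the Pparg call ended there too. With any other mouse left out, 2 or 3 member regions were lower. The higher calls at Nr3c2, Nr2c2, Ncoa6 and Ncor1 held without any 1 mouse. In the authors' deposited table, the same 10 regions had an FDR under 0.05, 7 up and 3 down, with log2 fold changes of 3.51 at Nr3c2, 2.94 at Ncor1 and -1.18 at Ncoa2.

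Just inside the 10 kb limit lay regions 9345 bp from Ncoa3 (55.8 CPM in Nr4a2-icTg hearts and 70.4 CPM in controls, log2 fold change -0.34) and 9006 bp from Med1 (-0.16). Just outside lay regions 10801 bp from Nr2c2 (35.1 CPM in Nr4a2-icTg hearts and 35.2 CPM in controls) and 11977 bp from Ppard (-0.25).

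Other nuclear receptors and coregulators, a companion list of 55 genes, had a region at 39 and 111 regions in all. A higher region was found at 9 of the 39 genes, Nr4a2 among them, and a lower one at 5, against 14.2% and 6.25% of all genes. By region, 20 of the 111 were higher and 5 lower, against 14.7% and 3.17% of all regions. Neither comparison is matched for distance to a gene end or for regions per gene. Nr1d1 is on this list, so regions near both Thra and Nr1d1, none of them called, count in both lists. Rora, a receptor gene of the clock, had 4 of 8 regions higher, the strongest change at 45.7 ± 5.49 CPM in Nr4a2-icTg hearts and 6.18 ± 2.74 CPM in controls (log2 fold change 2.76 ± 0.47). Zmiz1, the gene of an androgen receptor coactivator, had 3 of 7 (51.3 ± 5.66 CPM in Nr4a2-icTg hearts and 9.43 ± 4.10 CPM in controls, log2 fold change 2.40 ± 0.42). Ppargc1b, the PGC-1 beta gene, had 5 of 13 (largest log2 fold change 1.93 ± 0.35), and Ppargc1a, the PGC-1 alpha gene, had 2 of 8 (1.95 ± 0.35). The single Esrrb region was higher, with 2.37 ± 0.57. Nsd1, a histone methyltransferase gene, had 1 higher region (2.35 ± 0.36) and 1 lower. The other lower regions of this list lay at Nr4a1, Ncoa5, Gps2 and Carm1.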

How the data were processed

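NR4A2 ChIP-seq of heart ventricle from 6 mice was analysed (3 Nr4a2-icTg, 3 Cre control). The antibody test ChIP, its input and the pooled input, 3 of the 9 samples, were not analysed here. Per the labels' protocols, 200 ng of fly chromatin was added to 30 µg of mouse chromatin. The submitters' processing notes name BWA and build GRCm38 (mm10). Peak calling, counting, filters and any use of the fly reads are steps not given in the sources used here.

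Per region and mouse, the authors deposited CPM. Every value was a whole multiple of 1 read (100% of values, tolerance 0.001 of a read), so reads could be recovered. Columns summed to between 989059 and 1009112, so the values are relative to reads in regions times a factor near 1 per library that is not stated. A change shared by all regions would not show. The log2 fold change, log2 mean CPM and p-value with FDR columns are the authors' deposited comparison.

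The test was limma (version 3.58.1, R 4.3.3) with trend and robust moderation on log2(CPM + 1), genotype as the only term, no filter and Benjamini-Hochberg adjustment over all 16884 regions. Each library counts as 1 mouse, per the labels. A fold change is a difference of mean log2(CPM + 1), which the added 1 pulls towards 0 at weak regions. The fit was tested on simulated data. Alternatives were edgeR 4.0.16 and DESeq2 1.42.0 on recovered reads, other pseudocounts, a filter, no scaling, each mouse left out, a replicate block and other windows. Gene spans and promoters came from RefSeq GRCm38.p6, and all 36 genes matched. Named were every called member region, the strongest region of each other member (with further regions given for context after their values were seen), and up to 8 called genes of the companion list by size, of which 1 is not reported here. The members, lists and tests were chosen with earlier results of these data known.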

Additional observations from a re-analysis of the deposited data

How the results depend on the processing

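All 10 member calls were kept with a pseudocount of 0.5 or 5, with edgeR, without robust moderation and with the replicate block, and DESeq2 kept 9. In the block fit 7 member regions were higher and 3 lower, and 2540 and 580 over all regions. Mice with the same number did not deviate together (correlations -0.07, 0.06 and 0.03), and 1 of the 3 Nr4a2-icTg mice correlated best with its own number. No pairing by number was thus seen, though so few mice cannot exclude one. Among the 55 member regions of at least median CPM, limma called 0 higher (1 at an unadjusted p under 0.05) and 2 lower, since all 7 higher regions have less signal and were not tested. Over all regions this filter gave 481 and 235. DESeq2 called 251 regions lower over the table. With no scaling for depth, 4 member regions were higher and 0 lower, and 1398 and 14 over all regions. The cause was not tested. With 1 mouse left out, members had 5 to 9 higher and 0 to 3 lower regions, and the table had 1577 to 2332 higher and 270 to 454 lower. The lowest were 1577 and 270, without Nr4a2-icTg mouse 3, and 354 regions were lower without control mouse 3. Gene spans with no extension gave 7 and 3 of 56, and spans extended by 50 kb gave 10 and 4 of 124. No named region that was called under any of these settings reversed. At 1 read worth 0.955 to 1.81 CPM, values under about 5 CPM rest on few reads.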
